A study of Mus musculus with 20 samples.

Results

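The 5 genes described here, Car4, Slc26a3, Atp12a, Cdhr5 and Muc3, encode ion transport enzymes and surface proteins of the absorptive cells of the colon. They were taken by symbol from the count tables, where all 5 are among 46329 gene rows, and all 5 were among the 7119 rows tested. RNA came from colorectal tumors and from adjacent tissue of C57BL/6J mice aged 100 days, and every mouse carried 1 ApcMin allele, which causes intestinal tumors. Erbb2-deficient mice were homozygous for a conditional (floxed) Erbb2 allele and carried Tg(Vil1-cre), in which the villin promoter drives cre in intestinal epithelium. Control mice were littermates with the same floxed Erbb2 alleles and no cre. The groups were Erbb2-deficient tumor, control tumor, Erbb2-deficient adjacent tissue and control adjacent tissue, with 5 libraries each. Cells outside the epithelium keep Erbb2 in this model, and the cre transgene itself differs between the genotypes. The labels call the libraries biological replicates and do not say whether equal numbers mark 1 mouse, and a p-value here reflects only the variation among these libraries, which may be technical in part.

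The absorptive colonocyte is the mature cell of the surface and upper crypt of the colon, which takes up salt and water and secretes bicarbonate. Chloride is exchanged for bicarbonate across its apical membrane, and carbonic anhydrases in the cytosol and at the cell surface interconvert carbon dioxide and bicarbonate. A coat of membrane mucins and linked microvilli covers the brush border. In the mouse intestine, loss of Apc keeps epithelial cells in a crypt progenitor state through the Wnt pathway, and genes of mature colonocytes are known as markers of the differentiated state.

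RefSeq promoter windows were found for 4 of the 5 genes by symbol. They are shown because the 4 rows differ between tissues in the same direction. Each window of 300 bases runs from 250 bases before the annotated start to 50 bases after it, 5′ to 3′ along the gene (build GRCm38.p6, which is not the build of the counts). The windows are chr11:84957504-84957803 on the plus strand for Car4, chr12:31437969-31438268 on the plus strand for Slc26a3, chr7:141276737-141277036 on the minus strand for Cdhr5 and chr5:137165997-137166296 on the minus strand for Muc3. Capitals mark letter matches of 4 motifs, searched on both strands and chosen after the sequences had been seen.
Car4: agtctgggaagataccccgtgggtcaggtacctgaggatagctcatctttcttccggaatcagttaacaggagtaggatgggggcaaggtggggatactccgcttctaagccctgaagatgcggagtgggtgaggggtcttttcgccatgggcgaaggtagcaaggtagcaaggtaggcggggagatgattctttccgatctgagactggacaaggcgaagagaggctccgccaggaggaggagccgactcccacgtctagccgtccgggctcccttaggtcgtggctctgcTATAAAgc
Slc26a3: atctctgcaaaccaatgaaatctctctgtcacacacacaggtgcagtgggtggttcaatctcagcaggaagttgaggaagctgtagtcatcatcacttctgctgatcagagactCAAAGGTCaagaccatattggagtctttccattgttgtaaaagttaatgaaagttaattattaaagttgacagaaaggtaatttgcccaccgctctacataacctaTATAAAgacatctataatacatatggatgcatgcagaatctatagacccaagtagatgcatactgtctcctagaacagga
Cdhr5: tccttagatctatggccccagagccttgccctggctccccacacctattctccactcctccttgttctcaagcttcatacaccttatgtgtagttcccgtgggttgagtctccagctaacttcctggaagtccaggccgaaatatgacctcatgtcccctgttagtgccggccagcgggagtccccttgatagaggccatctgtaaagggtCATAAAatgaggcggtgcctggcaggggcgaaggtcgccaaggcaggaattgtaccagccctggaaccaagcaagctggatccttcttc
Muc3: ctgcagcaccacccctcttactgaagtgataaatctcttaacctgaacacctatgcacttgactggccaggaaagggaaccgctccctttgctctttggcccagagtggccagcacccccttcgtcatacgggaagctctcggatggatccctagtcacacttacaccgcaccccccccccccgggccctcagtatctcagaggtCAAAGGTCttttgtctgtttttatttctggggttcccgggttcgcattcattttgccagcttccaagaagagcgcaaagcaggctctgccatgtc

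An HNF4-type motif (CAAAGGTC) was present in 2 of the 4 windows. It began 136 bases before the start of Slc26a3 and 45 bases before the start of Muc3, and was present in 1.17% of 32851 RefSeq windows of the same length. A CDX-type motif (TTTATG) was present on the opposite strand of the Cdhr5 window, 39 bases before the start, and in 11.9% of all windows. The TATA motif (TATAAA) began 30 bases before the start of Slc26a3 and 42 bases after that of Car4, and 13.6% of all windows held it. A TCF/LEF-type motif (ATCAAAG) was in 0 of the 4 windows and in 3.73% of all windows. No 2 of these motifs overlapped in the 4 windows. Atp12a is named only.

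Counts on genes ranged from 1071737 to 1944309 per library, with a median of 1258396, and were 2.51% to 3.45% of a file's reads. The libraries were made with a stranded kit, and the strand setting of the counting is not given in the sources used here. The row of ND6, which lies on the other strand from the other mitochondrial protein genes, held 22599 to 199495 counts, above the sum of those 12 rows (884 to 5698) in 20 of 20 libraries. A symbol below therefore names a row of the files, which may hold reads of the strand opposite its gene. In GENCODE M21 no gene on the opposite strand is listed within 1000 bases of the exons of Car4, Slc26a3 and Cdhr5. None is listed for the GENCODE gene named Muc3 either. The GENCODE start of Gm40348, however, lies 401 bases from the RefSeq start of Muc3, and the opposite-strand neighbour GENCODE lists for it is Gm3054. For Muc3 this check thus does not cover the RefSeq locus used here. The exons of Atp12a overlap the opposite-strand gene Gm10873 over 557 of 4016 bases, and reads in that stretch cannot be told apart between the 2 genes. The Erbb2 row held 1 to 11 counts in Erbb2-deficient tumors, 1 to 10 in control tumors, 5 to 22 in Erbb2-deficient adjacent tissue and 3 to 12 in control adjacent tissue, and does not check the labels at this depth and with the strand unsettled. Among control tumors, 2 libraries stood apart. Control tumor 2 had 2.72 CPM (counts per 1000000 counts on tested rows, after TMM scaling) summed over 7 epithelial marker rows, against 259 to 478 CPM in the other control tumors. Control tumor 3 had 617 CPM summed over 9 goblet cell rows, against 0 to 56.5 CPM in the other control tumors. Values of the 5 rows that rest on control tumors are given with and without control tumor 3.

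In tumors all 5 rows were lower than in adjacent tissue, in Erbb2-deficient mice and in control mice. The transport rows Atp12a, Car4 and Slc26a3 held between 0 and 5 counts in any tumor library. The surface rows Cdhr5 and Muc3 were still counted in most tumors, and control tumor 3 gave 28 of the 39 Cdhr5 counts and 63 of the 80 Muc3 counts of the control tumors. In edgeR's quasi-likelihood test with Benjamini-Hochberg adjustment over all rows tested, 5 of 5 rows fell in Erbb2-deficient tumors, where 14.5% of all rows tested fell and 13.0% rose. In control tumors 5 of 5 fell as well, where 10.9% of all rows fell and 10.7% rose. Atp12a, Car4 and Slc26a3 passed the filter on low counts, described below, through adjacent libraries alone. Cdhr5 and Muc3 also reached its cutoff in 3 Erbb2-deficient tumors and 1 control tumor, fewer than the 5 libraries needed. The calls of all 5 rows are thus a description. Over these bulk samples, fewer cells of a type and less RNA per cell cannot be told apart.

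Car4 encodes carbonic anhydrase IV, an enzyme anchored to the outer face of the apical membrane that interconverts carbon dioxide and bicarbonate. The Car4 row had 0, 0.746, 0.698, 2.98 and 0.720 CPM in Erbb2-deficient tumors 1 to 5, against 33.2, 17.5, 43.7, 40.1 and 16.5 CPM in Erbb2-deficient adjacent libraries 1 to 5. In control tumors it had 0, 0.908, 4.60, 0 and 0 CPM, against 16.8, 9.24, 6.88, 28.7 and 22.2 CPM in control adjacent libraries. Every tumor library lay below every adjacent library of its genotype, and control tumor 3 was the highest tumor. The means were 1.03 ± 1.13 CPM in Erbb2-deficient tumors and 30.2 ± 12.6 CPM in Erbb2-deficient adjacent tissue (SD, n = 5 each). The fitted log2 fold change, with its SE, was -4.75 ± 0.72 (edgeR adjusted p = 0.000100). In controls the means were 1.10 ± 1.99 CPM in control tumors and 16.8 ± 9.03 CPM in control adjacent tissue, a log2 fold change of -3.88 ± 0.75 (edgeR adjusted p = 0.00116). Without control tumor 3 the mean of control tumors was 0.227 CPM and the fold change -5.75 ± 0.85 (edgeR adjusted p = 7.63e-05). Without Erbb2-deficient tumor 4 the Erbb2-deficient fold change was -5.52 ± 0.82 (edgeR adjusted p = 0.000174). With control tumors 2 and 3 both left out, control tumors held 0 counts, and the row was at least 19.96-fold lower than in control adjacent tissue, taking 3 counts over the group as the floor.

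Slc26a3 encodes the apical chloride and bicarbonate exchanger DRA, whose loss causes congenital chloride diarrhea in humans. The Slc26a3 row had 0, 0, 0.698, 2.23 and 0 CPM in Erbb2-deficient tumors 1 to 5, against 14.0, 9.97, 25.4, 9.08 and 5.95 CPM in Erbb2-deficient adjacent libraries. In control tumors it had 0, 0, 2.76, 0 and 0 CPM, against 3.95, 2.52, 4.59, 5.38 and 12.5 CPM in control adjacent libraries. The Erbb2-deficient groups did not overlap, and in controls control tumor 3 lay above control adjacent library 2. The log2 fold change was -4.24 ± 0.79 in Erbb2-deficient mice (edgeR adjusted p = 0.000628) and -3.25 ± 0.90 in controls (edgeR adjusted p = 0.0141). Tumors of the Erbb2-deficient mice held 4 counts in all, 3 of them in tumor 4, against 89 counts in their adjacent tissue. The ratio of normalized sums was 0.0462, with an exact 95% interval of 0.0123 to 0.122. Without Erbb2-deficient tumor 4 that ratio was 0.0144 (interval 0.000360 to 0.0822). Control tumors held 3 counts, all in control tumor 3, against 33 counts in control adjacent tissue, a ratio of 0.0893 (interval 0.0175 to 0.285). Without control tumor 3 the control tumors held 0 counts, and the row was at least 9.11-fold lower than in control adjacent tissue. Without control adjacent library 5 the control fold change was -2.77 ± 0.94, just short of the 0.05 threshold (edgeR adjusted p = 0.0512). These count intervals treat reads as independent and leave out the variation between libraries. Reads without molecular identifiers are not independent molecules either, so the intervals may be too narrow. The same holds for the intervals of Atp12a below.

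Atp12a encodes the catalytic subunit of the nongastric proton and potassium pump of the distal colon. The Atp12a row had 1.49 CPM in Erbb2-deficient tumor 2 and 0 CPM in the other 4 Erbb2-deficient tumors, against 12.8, 11.6, 27.8, 15.9 and 7.28 CPM in Erbb2-deficient adjacent libraries 1 to 5. In control tumors it had 1.69 CPM in control tumor 5 and 0 CPM in the other 4, against 11.8, 7.56, 1.53, 10.8 and 16.9 CPM in control adjacent libraries. Each of these tumor values is 2 counts, and control adjacent library 3 also held 2 counts, so the control groups overlapped at that library. The log2 fold change was -5.27 ± 0.82 in Erbb2-deficient mice (edgeR adjusted p = 0.000143) and -4.46 ± 0.87 in controls (edgeR adjusted p = 0.00131). The ratio of normalized sums of tumor over adjacent counts was 0.0200 in Erbb2-deficient mice (exact 95% interval 0.00238 to 0.0739) and 0.0364 in controls (interval 0.00430 to 0.138). Control tumor 3 held 0 counts of this row, and without it the control fold change was -4.21 ± 0.91 (edgeR adjusted p = 0.00196). Without Erbb2-deficient tumor 2 the row was at least 26.9-fold lower in Erbb2-deficient tumors than in their adjacent tissue, and without control tumor 5 at least 14.6-fold lower in control tumors than in theirs.

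Cdhr5 encodes a protocadherin of the brush border whose adhesion links join the tips of microvilli. The Cdhr5 row had 3.78, 8.21, 3.49, 17.1 and 8.65 CPM in Erbb2-deficient tumors 1 to 5, against 48.3, 33.2, 34.1, 41.6 and 29.1 CPM in Erbb2-deficient adjacent libraries. In control tumors it had 1.40, 0, 25.8, 5.71 and 2.54 CPM, against 60.2, 23.5, 32.1, 33.2 and 33.8 CPM in control adjacent libraries. The Erbb2-deficient groups did not overlap, while control tumor 3 lay above control adjacent library 2. The row averaged 8.25 ± 5.51 CPM in Erbb2-deficient tumors and 37.3 ± 7.63 CPM in Erbb2-deficient adjacent tissue (SD, n = 5 each), a log2 fold change of -2.17 ± 0.62 (edgeR adjusted p = 0.0135). It averaged 7.08 ± 10.6 CPM in control tumors and 36.6 ± 13.9 CPM in control adjacent tissue, a log2 fold change of -2.38 ± 0.65 (edgeR adjusted p = 0.0120). Without control tumor 3 the control tumors averaged 2.41 CPM and the fold change was -3.89 ± 0.57 (edgeR adjusted p = 7.63e-05). With the control groups fitted alone on the same rows the control difference missed the threshold at -2.37 ± 0.81 (edgeR adjusted p = 0.0797).

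Muc3 encodes a membrane-bound mucin of the intestinal surface coat. The Muc3 row had 6.04, 20.9, 1.40, 19.4 and 31.7 CPM in Erbb2-deficient tumors 1 to 5, against 155, 166, 280, 208 and 101 CPM in Erbb2-deficient adjacent libraries. In control tumors it had 4.89, 0, 57.9, 1.90 and 6.78 CPM, against 103, 103, 58.1, 78.9 and 91.6 CPM in control adjacent libraries. Neither pair of groups overlapped, but control tumor 3 and control adjacent library 3 were nearly level. The row averaged 15.9 ± 12.2 CPM in Erbb2-deficient tumors and 182 ± 66.9 CPM in their adjacent tissue (SD, n = 5 each), a log2 fold change of -3.51 ± 0.79 (edgeR adjusted p = 0.00261). It averaged 14.3 ± 24.5 CPM in control tumors and 86.9 ± 18.9 CPM in control adjacent tissue, a log2 fold change of -2.61 ± 0.78 (edgeR adjusted p = 0.0207). Without control tumor 3 the control tumors averaged 3.39 CPM and the fold change was -4.59 ± 0.69 (edgeR adjusted p = 8.94e-05). The control difference missed the threshold when control tumor 1, 4 or 5 was left out (edgeR adjusted p = 0.0531, 0.0520 and 0.0535) and with no filter on low counts (edgeR adjusted p = 0.107). With the control groups fitted alone on the same rows it was -2.60 ± 0.92 (edgeR adjusted p = 0.0896). Muc3 and Muc3a are related mucin rows between which reads could be divided, so the level of either is uncertain.

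**Figure D1:**
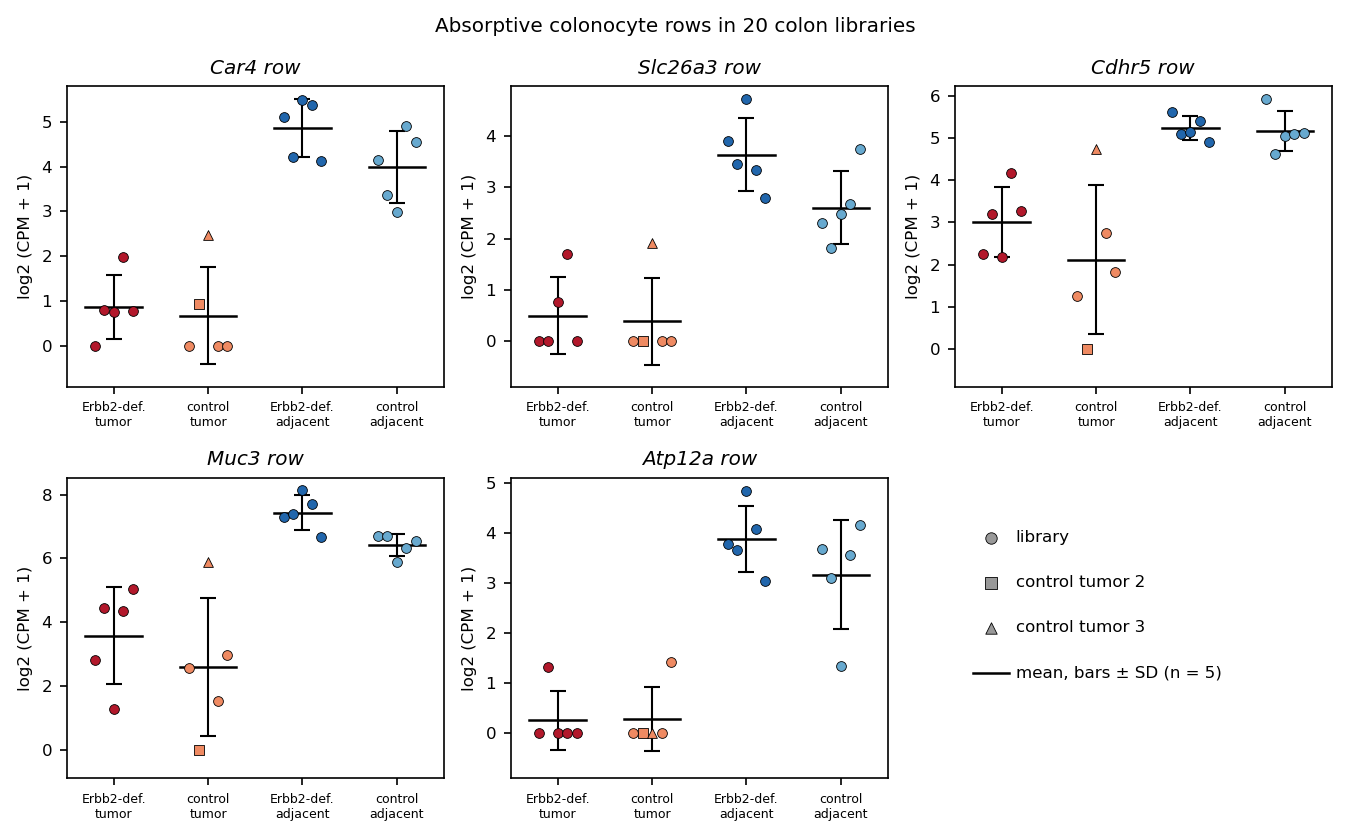
Level of each row in the 20 libraries, as log2 (CPM + 1) on the vertical axis, with 1 panel a gene and the 4 groups along the horizontal axis. Points are libraries, lines are means and bars are ± SD (n = 5), the square is control tumor 2 and the triangle control tumor 3. The triangle is the highest control tumor for Car4, Slc26a3, Cdhr5 and Muc3, at 4.60, 2.76, 25.8 and 57.9 CPM, and lies at 0 for Atp12a.

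The rows differed in what the filter on low counts required of them. It asked for 7.95 CPM in at least 5 libraries, which Car4 reached in 9 libraries, Atp12a in 7 and Slc26a3 in 5, all of adjacent tissue. For these 3 rows a difference between tissues was thus built in, and their calls are given as a description. Cdhr5 and Muc3 reached it in 14 libraries each, 4 of them tumors. Tumors alone would not have met the 5 libraries needed, so the calls of these 2 rows are a description as well. All 5 rows had non-overlapping libraries in Erbb2-deficient mice, where 13.6% of rows tested lay wholly lower in tumors, and 2 of the 5 (Car4 and Muc3) in controls, where 6.66% did. The median log2 fold change of the 5 rows was -4.24 in Erbb2-deficient mice and -3.25 in controls, beside -0.06 and 0.07 over all rows tested. These counts and medians include the 3 rows that passed the filter through adjacent tissue alone.

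**Figure D2:**
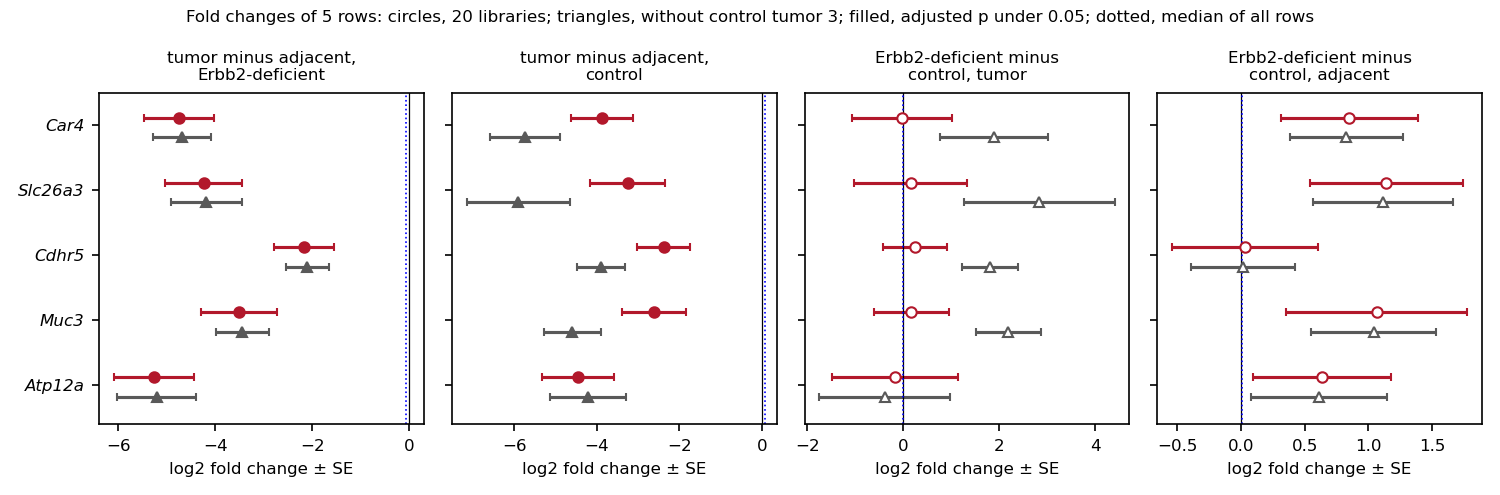
Fitted log2 fold change ± SE of the 5 rows on the horizontal axis in 4 comparisons, with 20 libraries (circles) and without control tumor 3 (triangles). Filled symbols have an edgeR adjusted p under 0.05 and the dotted line is the median of all rows tested. Symbols are filled in both tumor-adjacent panels and open in both genotype panels, and the triangle of Slc26a3 in controls is a fit to tumors that all held 0 counts.

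Between the genotypes, no difference in tumors passed the test in any of the 5 rows. With all libraries, Erbb2-deficient and control tumors had nearly the same mean in each row, for example 15.9 ± 12.2 and 14.3 ± 24.5 CPM for Muc3 and 8.25 ± 5.51 and 7.08 ± 10.6 CPM for Cdhr5 (SD, n = 5 each). The log2 fold change of Erbb2-deficient over control tumors was 0.16 ± 0.78 for Muc3, 0.25 ± 0.67 for Cdhr5, -0.02 ± 1.04 for Car4, 0.15 ± 1.18 for Slc26a3 and -0.17 ± 1.32 for Atp12a (edgeR adjusted p = 0.935 to 0.995). Of the 5 rows 0 were called and 0 had an unadjusted p under 0.05, DESeq2 also called 0, and 0 had groups that did not overlap. Over all rows tested 0 (0%) were called, 11.5% (817 rows) had an unadjusted p under 0.05, and DESeq2 called 26 rows. Groups that did not overlap were higher in Erbb2-deficient tumors in 0.927% of rows and lower in 1.19%.

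In 4 of the rows, Atp12a being the exception, these near-equal means depended on control tumor 3. Without it the means of control tumors were 3.39 CPM for Muc3, 2.41 CPM for Cdhr5, 0.227 CPM for Car4 and 0 CPM for Slc26a3, and the log2 fold changes of Erbb2-deficient over control tumors were 2.19 ± 0.68 for Muc3 (edgeR adjusted p = 0.144), 1.80 ± 0.59 for Cdhr5 (0.157) and 1.89 ± 1.13 for Car4 (0.447). For Slc26a3 the Erbb2-deficient tumors then held 4 counts and the control tumors 0, both near the floor of 3 counts. For Atp12a the fold change was -0.39 ± 1.37 (0.923), with 2 counts in each genotype. None passed the threshold. Without control tumors 2 and 3 the fold changes were 1.81 ± 0.65 for Muc3 and 1.43 ± 0.56 for Cdhr5 (edgeR adjusted p = 0.572 for both). Single libraries also turned the sign the other way. Without Erbb2-deficient tumor 4 the fold change was -0.20 for Cdhr5, -0.83 for Car4 and -1.14 for Slc26a3, and without Erbb2-deficient tumor 5 it was -0.26 for Muc3. For Atp12a it was 2.0 without control tumor 5, which left control tumors with 0 counts, and -2.17 without Erbb2-deficient tumor 2, which left Erbb2-deficient tumors with 0 counts.

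In adjacent tissue, Erbb2-deficient libraries had higher means than control libraries in all 5 rows, and no difference passed the test. The Muc3 row averaged 182 ± 66.9 CPM in adjacent tissue of Erbb2-deficient mice and 86.9 ± 18.9 CPM in that of controls (SD, n = 5 each), a log2 fold change of 1.07 ± 0.71 (edgeR adjusted p = 0.894). Of the Erbb2-deficient adjacent libraries, 4 lay above every control adjacent library, and library 5, at 101 CPM, lay below control libraries 1 and 2. The Slc26a3 row averaged 12.9 ± 7.56 CPM in Erbb2-deficient libraries and 5.78 ± 3.88 CPM in control libraries, a log2 fold change of 1.14 ± 0.60 with the smallest unadjusted p of the 5 rows (0.0707; edgeR adjusted p = 0.873). Control adjacent library 5, at 12.5 CPM, lay within the Erbb2-deficient range, and without it the fold change was 1.59. The Slc26a3 row reached the filter cutoff in 4 Erbb2-deficient and 1 control adjacent library, where 5 libraries were needed. Its difference between the genotypes in adjacent tissue was thus in part built in. The Car4 row averaged 30.2 ± 12.6 CPM in Erbb2-deficient libraries and 16.8 ± 9.03 CPM in control libraries, a log2 fold change of 0.85 ± 0.54 (edgeR adjusted p = 0.894). For Atp12a the means were 15.1 ± 7.74 and 9.72 ± 5.68 CPM in Erbb2-deficient and control adjacent tissue, and the fold change was 0.64 ± 0.54 (edgeR adjusted p = 0.927). For Cdhr5 they were 37.3 ± 7.63 and 36.6 ± 13.9 CPM, with a fold change of 0.03 ± 0.57 (edgeR adjusted p = 1.0). Of the 5 rows 0 had an unadjusted p under 0.05, DESeq2 called 0, and 0 had groups that did not overlap. Over all rows tested 0 (0%) were called by edgeR, 5.87% (418 rows) had an unadjusted p under 0.05, and DESeq2 called 5 rows. Groups that did not overlap were higher in Erbb2-deficient tissue in 0.730% of rows and lower in 0.801%. The median log2 fold change was 0.85 over the 5 rows and 0.01 over all rows tested. Summed epithelial marker rows were 300 to 635 CPM in Erbb2-deficient libraries and 274 to 411 CPM in control libraries, and 0 of the 7 were called. Their part in the difference was not tested.

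For none of the 5 rows did the tumor-adjacent difference pass a test of its change with genotype. The interaction, which is the Erbb2-deficient tumor-adjacent difference minus that of controls, was -0.90 ± 1.06 on the log2 scale for Muc3, -0.87 ± 1.19 for Car4, -0.99 ± 1.58 for Slc26a3, -0.80 ± 1.70 for Atp12a and 0.21 ± 0.88 for Cdhr5 (edgeR adjusted p = 1.0 each). Without control tumor 3 it was 1.15 ± 0.82 for Muc3, 1.06 ± 1.10 for Car4 and 1.79 ± 0.72 for Cdhr5 (edgeR adjusted p = 0.948, 0.971 and 0.757). For Atp12a it was -1.0 ± 1.65 (edgeR adjusted p = 0.990), and for Slc26a3 the control tumors then held 0 counts. Of the 5 rows 0 had an unadjusted p under 0.05 and DESeq2 called 0, beside 0 (0%) of all rows called and 4.07% (290 rows) with an unadjusted p under 0.05.

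Other cell types moved with the tissue. Of the 9 smooth muscle marker rows, 9 fell in Erbb2-deficient tumors and 9 in control tumors, and none was at 0 throughout a group. Their summed level was 161 to 253 CPM in Erbb2-deficient tumors and 1051 to 1386 CPM in Erbb2-deficient adjacent tissue, and 161 to 517 CPM in control tumors and 1082 to 2534 CPM in control adjacent tissue. Among these muscle rows, Tagln, Smtn and Des share exon bases with an opposite-strand gene, and Acta2 and Tpm2 lie near one. The 7 epithelial marker rows had 0 calls in either genotype, with sums of 360 to 656 CPM in Erbb2-deficient tumors against 300 to 635 CPM in their adjacent tissue, and 259 to 478 CPM in control tumors other than tumor 2 against 274 to 411 CPM in control adjacent tissue. Of these 7, Krt8 and Cldn3 share exon bases with an opposite-strand gene. Of 8 goblet cell rows tested, 5 fell in Erbb2-deficient tumors and 3 in control tumors, beside 14.5% and 10.9% of all rows tested. Their summed level over 9 rows was 31.4 to 368 CPM in Erbb2-deficient tumors and 491 to 937 CPM in their adjacent tissue, and 0 to 617 CPM in control tumors and 196 to 794 CPM in control adjacent tissue. The part of goblet cells in the Muc3 difference was not tested.

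The rows were also set against the summed epithelial rows of the same library. Control tumor 2, with an epithelial sum of 2.72 CPM, is left out of the shares of control tumors below. In it Car4 was 33.3% of that sum, above every control adjacent library, and the other 4 rows were at 0%. The Muc3 row was 0.388% to 8.41% of that sum in Erbb2-deficient tumors and 24.5% to 47.8% in their adjacent tissue. It was 0.709% to 12.1% in the 4 control tumors, where control tumor 3 was the highest, and 18.1% to 37.7% in control adjacent tissue. The Car4 row was 0% to 0.509% and 3.63% to 8.67% in Erbb2-deficient tumors and adjacent tissue, and 0% to 0.962% and 2.15% to 9.04% in the 4 control tumors and in control adjacent tissue. The Slc26a3 row was 0% to 0.382% in Erbb2-deficient tumors and 1.96% to 4.33% in their adjacent tissue, and 0% to 0.577% in the 4 control tumors and 0.920% to 3.48% in control adjacent tissue. The Cdhr5 row was 0.960% to 2.93% in Erbb2-deficient tumors and 5.82% to 9.71% in their adjacent tissue, and 0.349% to 5.38% in the 4 control tumors and 8.59% to 14.7% in control adjacent tissue. Without control tumor 2, tumors and adjacent tissue did not overlap in these 4 rows in either genotype. The share of all rows tested that did so on this scale was not computed. Tumors alone would not have passed any of the 4 rows through the filter on low counts, so these values are a description. The Atp12a row was 0% to 0.228% in Erbb2-deficient tumors and 2.01% to 4.74% in their adjacent tissue, and its control groups overlapped, at 0% to 0.654% in the 4 tumors and 0.477% to 4.73% in adjacent tissue. Between the adjacent groups the Muc3 share averaged 37.1% ± 9.42 in Erbb2-deficient and 26.3% ± 7.10 in control libraries (SD, n = 5 each), and the Cdhr5 share 7.81% ± 1.57 and 10.6% ± 2.36.

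**Figure D3:**
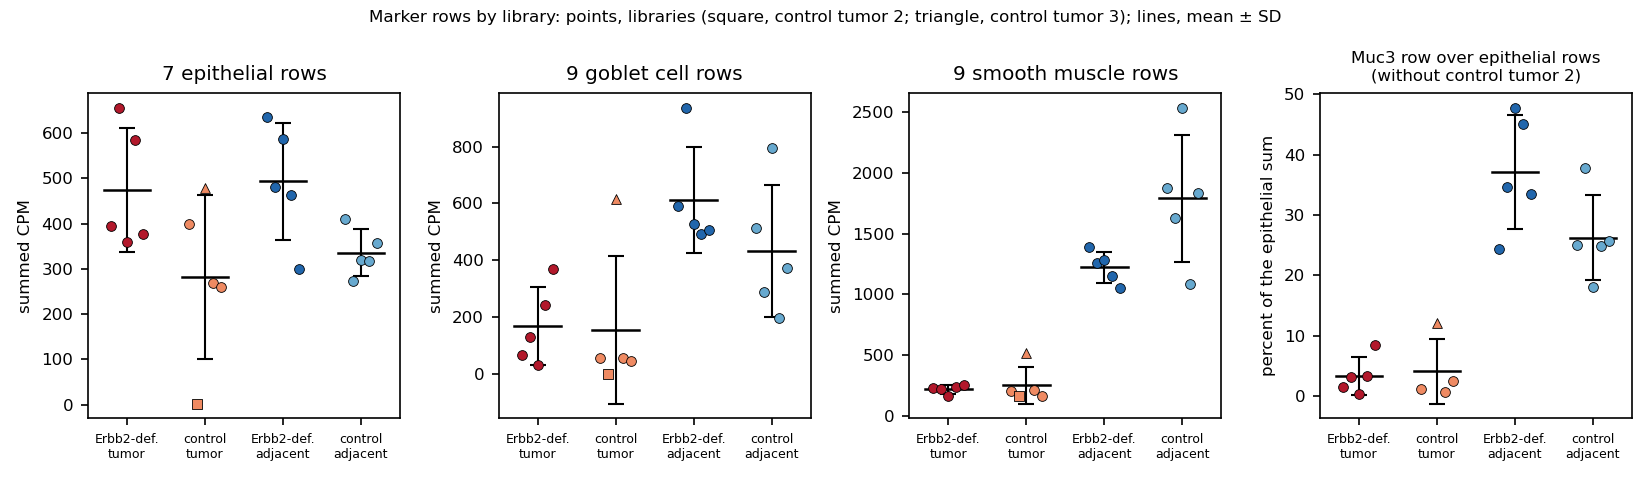
Summed CPM of 7 epithelial, 9 goblet cell and 9 smooth muscle marker rows by library, and the Muc3 row as a percentage of the epithelial sum, over the 4 groups. Points are libraries, lines are means and bars are ± SD (n = 5, and 4 for control tumors in the last panel, where control tumor 2 is left out). The epithelial sums of tumors and adjacent tissue overlap, apart from that of control tumor 2, the smooth muscle sums do not, and the Muc3 share without control tumor 2 lies at 12.1% or lower in tumors and at 18.1% or higher in adjacent tissue.

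Across the 20 libraries the 5 rows went together, with a Pearson r of log2 CPM between 0.76 (Cdhr5 and Atp12a) and 0.95 (Car4 and Slc26a3) over the 10 pairs. These values include the split between tissues. Taken as deviations from the group means, the correlations ranged from 0.05 to 0.79, with 0.79 for Cdhr5 and Muc3, 0.76 for Car4 and Slc26a3 and 0.05 for Cdhr5 and Atp12a. The libraries also share depth and scaling, and these values are a description.

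By the same r over the 20 libraries, the row of each member was set against all tested rows with a named gene. These values include the split between tissues too and are a description. For the pairs named below, r of deviations from the group means ran from 0.42 (Atp12a and Car4) to 0.91 (Muc3 and Clca1). Car4 was most like Slc26a3 (0.95), Tdrd12 (0.94) and Nfic (0.94), and Slc26a3 was most like Car4, Clec2h (0.93) and Sbf2 (0.93). Atp12a was most like Mptx1 (0.94), Ftdc2 (0.92) and Car4 (0.92). Cdhr5 was most like Abhd11, Ethe1 and Duoxa2 (0.95 each), and Muc3 was most like Clca1 (0.96), Fcgbp (0.95) and B3galt5 (0.95). Clca1 and Fcgbp encode secreted products of goblet cells and were among the goblet markers above. The Clca1 row averaged 8.40 ± 6.90 CPM in Erbb2-deficient tumors and 79.1 ± 40.7 CPM in their adjacent tissue, and 6.32 ± 8.31 CPM in control tumors and 73.3 ± 20.4 CPM in control adjacent tissue (SD, n = 5 each). The B3galt5 row had 15.2 ± 4.08 CPM in adjacent tissue of Erbb2-deficient mice and 5.83 ± 1.30 CPM in that of controls, and the Abhd11 row 548 ± 129 and 625 ± 215 CPM.

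Among other genes of apical ion and water transport, 9 of 31 were tested. In Erbb2-deficient tumors 4 fell and 1 rose, and in control tumors 4 fell and 1 rose. Over all rows tested 14.5% fell and 13.0% rose in Erbb2-deficient tumors, and 10.9% fell and 10.7% rose in control tumors. The Scnn1a row, for a subunit of the epithelial sodium channel, fell by 1.77 ± 0.41 on the log2 scale in Erbb2-deficient tumors (edgeR adjusted p = 0.00317) and by 2.24 ± 0.44 in control tumors (0.00128). The Slc16a1 row, for the monocarboxylate transporter MCT1, fell by 1.93 ± 0.50 in Erbb2-deficient tumors (0.00652) and by 1.98 ± 0.53 in control tumors (0.0109). The Nr3c2 row, for the mineralocorticoid receptor, fell by 2.21 ± 0.44 in Erbb2-deficient tumors (0.00111) and by 2.24 ± 0.49 in control tumors (0.00314), and overlaps an exon of Gm10649 on the opposite strand. The Trpv6 row, for an epithelial calcium channel, was the one that rose. It averaged 192 CPM in Erbb2-deficient tumors and 14.3 CPM in their adjacent tissue (log2 fold change 3.74 ± 0.68, edgeR adjusted p = 0.000491), and 118 CPM in control tumors and 11.6 CPM in control adjacent tissue (3.34 ± 0.68, 0.00192). Ephb6 lies near Trpv6 on the opposite strand. Pdzk1, whose exons overlap those of 4930442L01Rik, Cd160 and Gpr89 on the opposite strand, also fell in both genotypes. With control tumor 3 left out, the control log2 fold changes were -2.42 ± 0.47 for Scnn1a, -2.46 ± 0.54 for Slc16a1, -2.81 ± 0.52 for Nr3c2 and 3.63 ± 0.59 for Trpv6 (edgeR adjusted p = 0.000185 to 0.00220), and 7 of 13 rows tested were called. With the control groups fitted alone 3 of the 9 were called, and without control tumor 2 the count for Erbb2-deficient tumors was 8 of 13. Calls over all rows tested, in either direction, moved as well. In controls they were 2127 of 7523 without control tumor 3 and 814 of 7119 with the control groups fitted alone. In Erbb2-deficient mice they were 2719 of 7516 without control tumor 2.

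Of 13 carbonic anhydrase rows other than Car4, 3 were tested, and 2 fell in each genotype. Of all rows tested, 14.5% fell in Erbb2-deficient tumors and 10.9% in control tumors. The Car2 row, for a cytosolic carbonic anhydrase, fell by 2.50 ± 0.59 in Erbb2-deficient tumors (edgeR adjusted p = 0.00365) and by 1.82 ± 0.62 in control tumors (0.0399). The Car9 row fell by 1.92 ± 0.40 in Erbb2-deficient tumors (0.00149) and by 1.76 ± 0.40 in control tumors (0.00387), and lies opposite Gm12454 and near the smooth muscle gene Tpm2. The Car14 row, opposite Aph1a, had log2 fold changes of -0.73 ± 0.30 (0.0719) in Erbb2-deficient and -0.71 ± 0.30 (0.0920) in control tumors. All 3 were called in controls without control tumor 3, beside 2127 of 7523 over all rows tested. Their values were then -2.87 ± 0.60 for Car2, -2.35 ± 0.34 for Car9 and -1.10 ± 0.25 for Car14 (edgeR adjusted p = 6.62e-05 to 0.00283). The control count was 1 with the control groups fitted alone, and also without control tumor 1, 4 or 5 or control adjacent library 1, 2, 3 or 4.

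Of 26 rows of the brush border and enterocyte surface 12 were tested. Of these, 3 fell in Erbb2-deficient tumors (Myo1a, Lypd8 and Espn) and 1 in control tumors (Myo1a). Of all rows tested, 14.5% fell in Erbb2-deficient tumors and 10.9% in control tumors, so the control count does not exceed that share. The Myo1a row, for a brush border myosin, fell by 1.85 ± 0.45 in Erbb2-deficient tumors (edgeR adjusted p = 0.00438) and by 1.38 ± 0.47 in control tumors (0.0394). The Lypd8 row, for a secreted colonocyte protein that binds flagellated bacteria, fell by 1.98 ± 0.65 in Erbb2-deficient tumors (0.0290), and its log2 fold change in control tumors was -1.64 ± 0.66 (0.0821). Those of Myo7b were -0.08 ± 0.56 (0.934) in Erbb2-deficient and -1.25 ± 0.63 (0.163) in control tumors, and those of Ceacam1 -1.01 ± 0.57 (0.193) and -0.93 ± 0.58 (0.263). Leaving out control tumor 3 gave control log2 fold changes of -1.49 ± 0.50 for Myo1a, -2.51 ± 0.64 for Lypd8 and -1.76 ± 0.54 for Ceacam1 (edgeR adjusted p = 0.00630 to 0.0310) and -1.27 ± 0.68 for Myo7b (0.173). In that fit 6 of 13 tested were called, beside 2127 of 7523 over all rows tested. The control count was 0 with the control groups fitted alone, and without control tumor 4 or control adjacent library 4 or 5, and it was 2 without control tumor 1 or 2. The Erbb2-deficient count was 1 without Erbb2-deficient adjacent library 3 and 1 with the replicate block.

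Of 8 other membrane mucin rows 3 were tested, and 0 passed in either genotype by edgeR or DESeq2. The Muc3a row averaged 7.48 ± 2.35 CPM in Erbb2-deficient tumors and 12.5 ± 6.94 CPM in their adjacent tissue, and 7.53 ± 7.99 CPM in control tumors and 7.33 ± 5.06 CPM in control adjacent tissue. Its log2 fold change was -0.72 ± 0.57 (edgeR adjusted p = 0.368) in Erbb2-deficient and -0.02 ± 0.60 (0.984) in control tumors. The log2 fold changes of Muc13, which also shares exon bases with an opposite-strand gene, were -0.86 ± 0.57 and -0.89 ± 0.58 in Erbb2-deficient and control tumors, and those of Muc20, which lies opposite Muc4, were -0.88 ± 0.81 and -0.60 ± 0.80 (edgeR adjusted p = 0.272 to 0.633). The control values without control tumor 3 were -0.21 ± 0.66 for Muc3a, -1.06 ± 0.62 for Muc13 and -1.44 ± 0.81 for Muc20 (edgeR adjusted p = 0.197 to 0.845).

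Among 13 transcriptional regulators of colonocytes 7 were tested, and 3 fell in each genotype. Of all rows tested, 14.5% fell in Erbb2-deficient tumors and 10.9% in control tumors. The Klf4 row, for a factor of terminal differentiation, fell by 2.28 ± 0.59 in Erbb2-deficient tumors (edgeR adjusted p = 0.00656) and by 1.99 ± 0.59 in control tumors (0.0198). The Vdr row, for the vitamin D receptor, fell by 3.12 ± 0.68 in Erbb2-deficient tumors (0.00208) and by 2.39 ± 0.77 in control tumors (0.0305). The Cdx1 row, for an intestinal homeobox factor, fell by 1.78 ± 0.51 in Erbb2-deficient tumors (0.0136) and by 1.62 ± 0.53 in control tumors (0.0335). The Hnf4a row had log2 fold changes of -1.41 ± 0.53 (0.0515) and -1.03 ± 0.55 (0.184) in Erbb2-deficient and control tumors. In controls without control tumor 3 the values were -3.27 ± 0.48 for Klf4, -3.57 ± 0.86 for Vdr and -2.27 ± 0.52 for Cdx1 (edgeR adjusted p = 6.93e-05 to 0.00427) and -1.33 ± 0.58 for Hnf4a (0.0919). The 3 calls in controls were lost with the control groups fitted alone and without control tumor 1 or 4, and the count was 1 without control tumor 5 or control adjacent library 1. Without control tumor 2 the Erbb2-deficient count was 5 of 8, beside 2719 of 7516 over all rows tested. In both genotype comparisons and the interaction 0 rows of these 5 lists were called. Median log2 fold changes in tumors over adjacent tissue were -0.50 and -0.58 (ion transport), -1.92 and -1.76 (carbonic anhydrases), -0.94 and -0.83 (brush border), -0.86 and -0.60 (membrane mucins) and -1.41 and -1.03 (regulators) in Erbb2-deficient and control mice.

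**Figure D4:**
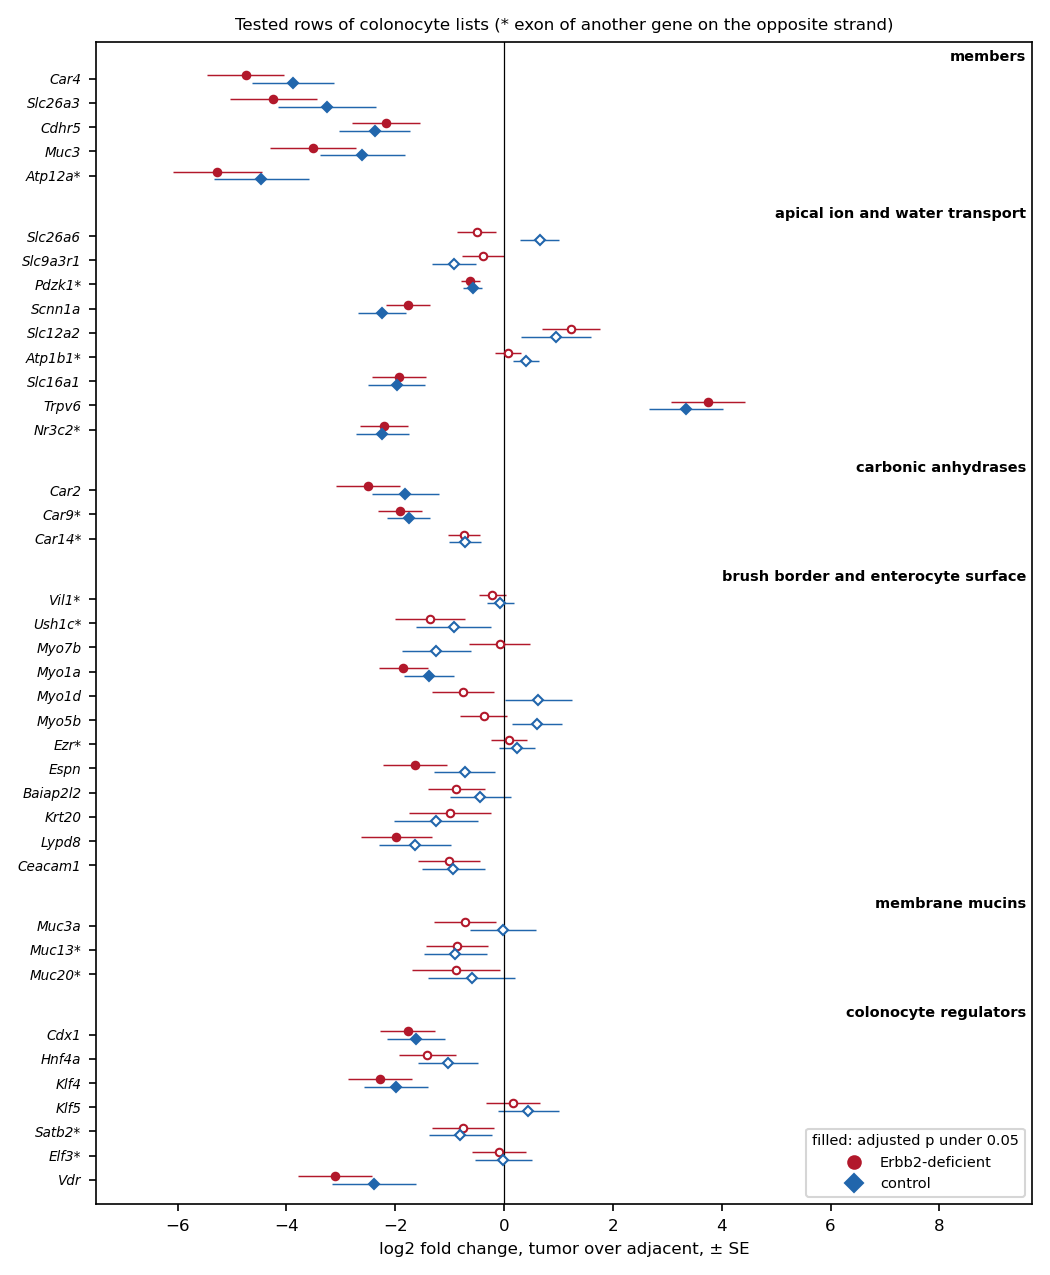
Fitted log2 fold change of tumor over adjacent tissue ± SE on the horizontal axis for the 5 rows and for every tested row of 5 colonocyte lists, in Erbb2-deficient mice (circles) and controls (diamonds). Filled symbols have an edgeR adjusted p under 0.05 and an asterisk marks rows whose exons meet those of an opposite-strand gene. Trpv6 lies to the right at 3.74 and 3.34 and the Atp12a row farthest to the left at -5.27 and -4.46.

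The Muc3 row was also set beside a neighbour on the other strand. Gm40348 is a predicted gene whose start in GENCODE M21 lies 401 bases from the RefSeq start of Muc3, with the 2 genes facing apart. It was chosen after its values were seen. Its row averaged 4.70 ± 3.49 CPM in Erbb2-deficient tumors and 24.7 ± 2.49 CPM in their adjacent tissue (log2 fold change -2.37 ± 0.50, edgeR adjusted p = 0.00166), and 4.38 ± 4.86 CPM in control tumors and 26.0 ± 8.49 CPM in control adjacent tissue (-2.56 ± 0.52, 0.00178). The control tumors other than tumor 3 averaged 2.25 CPM, and the fold change without it was -3.44 ± 0.49 (edgeR adjusted p = 5.65e-05). It fell in tumors of both genotypes, as did the Muc3 row. Between the adjacent groups its fold change was -0.07 ± 0.45 for Erbb2-deficient over control tissue (edgeR adjusted p = 1.0), where that of Muc3 was 1.07 ± 0.71, and the difference between the 2 rows was not tested.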

How the data were processed

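RNA of colorectal tumors and adjacent tissue was sequenced from TruSeq Stranded mRNA libraries, per the labels' protocols. The deposited tables give raw read counts by gene symbol. The submitters' processing notes name build mm39, DESeq2, Trimmomatic, HTSeq (2.0.2) and HISAT2 (2.2.1), with no settings. Each file ends with 5 summary rows that name no gene, which entered neither depths nor tests. They hold reads on no feature (78.6% to 85.1% of a file), reads aligned at several places (6.13% to 11.5%), reads below the quality limit (3.86% to 5.65%), reads not aligned (1.52% to 2.48%) and ambiguous reads (0.0309% to 0.0868%). In all 20 libraries 18657 gene rows were at 0.

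The labels gave each library its group and number. Rows were filtered with filterByExpr by group (minimum count 10) and scaled with TMM. A model with 1 mean for each of the 4 groups was fitted in edgeR 4.0.16 (R 4.3.3) over the 20 libraries, and robust quasi-likelihood F tests were adjusted by Benjamini-Hochberg over 7119 rows, with a threshold of 0.05. An SE is the log2 fold change over the square root of F. The log2 CPM of correlations has a prior count of 2. Ratios of summed counts, normalized by library size, have exact conditional binomial intervals (95%). Opposite-strand genes within 1000 bases are from GENCODE M21, on another build, for names only. The fits were tested on simulated counts. Alternatives were DESeq2 size factors in edgeR, no filter, DESeq2 1.42.0, only the groups compared, a replicate block and leaving out libraries. Fits of only the groups compared on the rows of the full fit ("fitted alone") were added after the data had been seen. Values were named for the 5 members, for up to 4 rows a list of smallest p in the tumor-adjacent comparison of control mice, and for the 3 rows of highest r a member. Espn, Pdzk1, Gm40348, Axin2, Chga and Chgb were named after their values were seen. 1 gene of the ion transport list is not reported here. The members, the lists and the tests were chosen with earlier results of these data known.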

Additional observations from a re-analysis of the deposited data

Results flagged for a closer look

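In each of the 5 rows and 4 groups the highest or lowest library was compared with the nearest other one, by the gap over the range of the 5 libraries. Of these 20 sets of libraries 9 had a library past Dixon's 95% critical value. Its rate of about 1 in 20 assumes normal values and independent sets. Low counts and rows that share libraries do not meet this, so the 9 are a description. For Slc26a3 in control tumors and Atp12a in both tumor groups, the other 4 libraries were at 0 and any count is past the critical value. Control tumor 3 stood above the other control tumors in 4 rows, with 4.60 CPM for Car4 (next 0.908), 2.76 CPM for Slc26a3 (next 0), 25.8 CPM for Cdhr5 (next 5.71) and 57.9 CPM for Muc3 (next 6.78). The same library had 617 CPM over the goblet cell rows and 517 CPM over the smooth muscle rows. The part of these in its values was not tested.

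Erbb2-deficient tumor 4 was high for Car4, at 2.98 CPM (next 0.746). The Atp12a row was above 0 in 1 tumor library of each genotype, at 1.49 CPM in Erbb2-deficient tumor 2 and 1.69 CPM in control tumor 5, each 2 counts. In control adjacent tissue, library 5 was high for Slc26a3 at 12.5 CPM (next 5.38) and library 1 for Cdhr5 at 60.2 CPM (next 33.8).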

How the results depend on the processing

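Tumor-adjacent differences kept their direction in all 5 rows under every alternative, and their calls in Erbb2-deficient mice did so where the row was tested. With only the groups compared, 3 of 3 rows passing the filter were called in Erbb2-deficient mice and 0 of 2 in controls, and 3 of 5 in controls when the rows of the full fit were kept. Leaving out 1 library gave 4 to 5 calls in controls. Rows called in controls were 1540, against 593 and 814 with only the control groups (own filter, and rows of the full fit) and 2544 without control tumors 2 and 3. In Erbb2-deficient mice they were 1959, against 2939 without those 2 tumors. By genotype DESeq2 called 26 rows in tumors, and in adjacent tissue the count of 0 was 5 with DESeq2, 1 with no filter, 1 without control tumors 2 and 3 and 0 to 2 on leaving out 1 library.

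Genotype differences in tumors and interactions, none called, changed sign with single libraries in all 5 rows and Gm40348. In tumors they ranged over -0.83 to 1.89 for Car4, -1.14 to 2.84 for Slc26a3, -0.20 to 1.80 for Cdhr5, -0.26 to 2.19 for Muc3, -2.17 to 2.0 for Atp12a and -0.38 to 1.04 for Gm40348. In adjacent tissue those of Cdhr5 (-0.11 to 0.26) and Gm40348 (-0.22 to 0.0823) changed sign, and those of Muc3 (0.84 to 1.19), Car4 (0.62 to 1.11), Slc26a3 (0.74 to 1.59) and Atp12a (0.28 to 0.91) stayed positive, none called. Interactions ranged over -1.66 to 1.06 for Car4, -2.26 to 1.72 for Slc26a3, -0.21 to 1.79 for Cdhr5, -1.30 to 1.15 for Muc3, -2.78 to 1.40 for Atp12a and -0.28 to 1.13 for Gm40348. Without control tumors 2 and 3 the Car4 tumor difference was 3.57, and interactions were 2.75 for Car4, 1.74 for Slc26a3 and 0.78 for Muc3. The Cdhr5 adjacent difference was -0.0097 with no filter. The cause of these changes was not tested.

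The labels do not say what equal replicate numbers share, and the numbers did not pass the check for pairing. Deviations of same-numbered libraries correlated above 0.1 in 3 of 5 pairs of Erbb2-deficient tumor and adjacent tissue (-0.02 to 0.23), in 3 of 5 for controls (-0.12 to 0.37), in 3 of 5 between adjacent groups (-0.19 to 0.43) and in 0 of 5 between tumors (-0.26 to 0.04). The best match was the own number in 1, 3, 2 and 0 of 5 libraries in these 4 sets, which is a hint from the data at most. With the replicate block the 5 rows stayed called in both genotypes, 1989 rows were called in Erbb2-deficient mice and 1428 in controls, and the Muc3 interaction was 0.0336. Low counts limit Slc26a3, Atp12a and Car4 in tumors, where a value is often 0 to 5 counts.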

Other observations

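Among other marker lists, the stem cell rows summed to 46.1 to 61.5 CPM in Erbb2-deficient tumors and 1.16 to 7.28 CPM in their adjacent tissue, and to 2.72 to 55.8 CPM in control tumors and 1.79 to 7.56 CPM in control adjacent tissue. The 1 stem cell row tested, Axin2, a feedback target of the Wnt pathway, rose in Erbb2-deficient tumors (log2 fold change 3.95 ± 0.74, edgeR adjusted p = 0.000595) and in control tumors (3.0 ± 0.76, 0.00802), and overlaps an exon of Gm11670 on the opposite strand. Of the 2 enteroendocrine rows tested, Chga fell by 2.37 ± 0.74 in Erbb2-deficient tumors (edgeR adjusted p = 0.0218) and by 3.87 ± 0.93 in control tumors (0.00591). The other, Chgb, passed in neither, at -1.93 ± 0.72 (0.0509) in Erbb2-deficient and -1.25 ± 0.75 (0.247) in control tumors. Over all rows tested 14.5% fell and 13.0% rose in Erbb2-deficient tumors, and 10.9% fell and 10.7% rose in control tumors. The B and T cell rows summed to 94.4 CPM in control tumor 2 and to 1.90 to 14.7 CPM in the other control tumors.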
